A study of Mus musculus with 23 samples.

Results

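miR-122 was followed through its 2 mature miRNAs, mmu-miR-122-5p and mmu-miR-122-3p, which are the arms cut from the 2 sides of one hairpin. Both were found in the table by name, and they are 2 of its 1218 mature miRNAs. Small RNA was sequenced from the liver of 23 F3 male C57bl/6J mice, with 1 library per mouse. The 8 reference mice (labelled STD_Cont) came from a control lineage and ate, for 17 weeks, a low-fat diet in which fat supplied 10% of the energy. The 8 HFoleic mice (HFD_Cont) came from the same control lineage and were given, for 17 weeks, a diet rich in fat and sucrose in which fat supplied 45% of the energy. The 7 HFepa mice (HFD_O3) ate that high-fat diet too, also for 17 weeks, but came from an omega 3 lineage. Both lineages were kept on breeding diets with 1% added oil, a sunflower oil rich in oleic acid in the control lineage and a fish oil rich in eicosapentaenoic acid (EPA) in the omega 3 lineage. The 23 mice include no group of the omega 3 lineage on the low-fat diet, so the effect of lineage was compared on the high-fat diet only.

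A microRNA is a short RNA that, loaded into an Argonaute protein, pairs through its seed (bases 2 to 8) with messenger RNAs and lowers their translation and stability. miR-122 is known as a hallmark miRNA of the hepatocyte, where hepatocyte transcription factors drive its precursor. Loss of miR-122 in mice lowers plasma cholesterol and leads to lipid storage in the liver. The 5p arm is the one mainly loaded and called the guide, whereas the 3p arm is mostly discarded.

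The levels of miR-122-5p were read against those of the 3 miRNAs with the most counts in these livers, whose mature sequences (RefSeq, GRCm38, 5′ to 3′) are shown because the ratios described further on use them. Capitals mark the seed, and the 3 seeds differ.
miR-192-5p, chr19:6264857-6264877, plus strand: cUGACCUAugaauugacagcc
miR-22-3p, chr11:75463772-75463793, plus strand: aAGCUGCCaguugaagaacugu
miR-148a-3p, chr6:51269829-51269850, minus strand: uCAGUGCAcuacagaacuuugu
miR-192-5p is a liver and gut miRNA made with miR-194, miR-22-3p is a broadly expressed miRNA, and miR-148a-3p is abundant in hepatocytes and is known to target the low-density lipoprotein receptor.

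The 23 libraries held 3725432 to 8139344 counts. Levels are given in CPM, the usual unit of counts brought to one library size, after scaling by the trimmed mean of M values (TMM), whose factor was 1.26 in reference library 3, 1.13 in HFepa library 19 and 0.93 to 1.04 in the others. Libraries 3 and 19 therefore stand apart, and the results that rest on them are also given without them. In library 3 the summed level of 8 hepatocyte miRNAs was the lowest of all, at 194137 CPM against 274180 to 368548 CPM in the other 22 libraries. Its summed levels of biliary epithelium miRNAs (1094 CPM, against 151 to 333 CPM in the others), of stellate cell and fibroblast miRNAs (42532 CPM, against 19872 to 33228 CPM) and of leukocyte miRNAs (3557 CPM, against 1533 to 2800 CPM) were the highest of all, while those of endothelial miRNAs (13887 CPM, against 16593 to 26007 CPM) and of red blood cell miRNAs (3571 CPM, against 3624 to 8773 CPM) were the lowest of all. The part of these other cells in the level of miR-122 in library 3 was not tested. In whole liver, fewer hepatocytes and less miRNA per hepatocyte cannot be told apart. Libraries are numbered as their titles number them, 1 to 8 in the reference group, 9 to 15 and 23 in HFoleic and 16 to 22 in HFepa.

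miR-122-5p, the guide arm, differed between the 3 groups by less than the spread between mice. In the reference group its lowest, median and highest levels were 10804, 19382 and 22877 CPM, with a mean of 18693 ± 3693 CPM (SD, n = 8). In HFoleic they were 14900, 19096 and 21124 CPM, with a mean of 18660 ± 2045 CPM (SD, n = 8). In HFepa they were 13698, 18845 and 22690 CPM, with a mean of 18689 ± 2782 CPM (SD, n = 7). The lowest library of each group was library 3, 12 and 19, and the highest was library 7, 13 and 22. The ranges of the 3 groups overlap over most of their length. As a share of all counts, miR-122-5p made up 1.36% to 2.24% of the reference libraries, 1.56% to 2.01% of the HFoleic libraries and 1.54% to 2.18% of the HFepa libraries. Its counts ran from 57556 to 157071 per library, which sets a counting error of at most 0.417%. The spread between mice of 1 group, 18.1% as edgeR's biological coefficient of variation, is far above that, so depth does not limit these levels.

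miR-122-3p, the other arm, also differed between groups by less than that spread. Its lowest, median and highest levels were 685, 1147 and 1279 CPM in the reference group, with a mean of 1084 ± 207 CPM (SD, n = 8). In HFoleic they were 894, 1150 and 1445 CPM (mean 1167 ± 169 CPM, SD, n = 8), and in HFepa 808, 1102 and 1348 CPM (mean 1091 ± 193 CPM, SD, n = 7). Libraries 3, 12 and 19, lowest in their groups for the 5p arm, were also lowest in their groups for the 3p arm. The highest libraries were others than for the 5p arm, namely 1, 14 and 20. The groups overlap again, and the counts of 3396 to 9554 per library give a counting error of at most 1.72%.

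**Figure D1:**
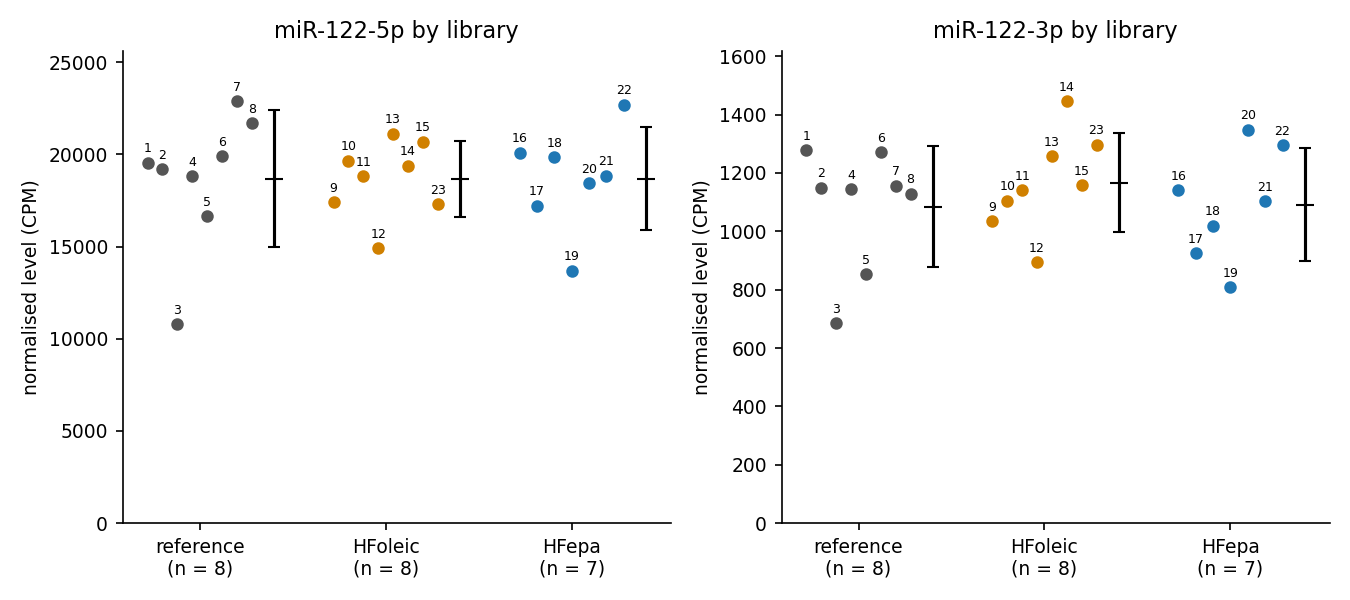
TMM-scaled level in CPM of miR-122-5p (left) and miR-122-3p (right) in each library, numbered and grouped as reference (n = 8), HFoleic (n = 8) and HFepa (n = 7), with the mean and SD of each group as the bar beside it. Libraries 3, 12 and 19 are the lowest of their groups for both arms, and the 3 groups overlap for both arms.

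The first comparison asks whether the high-fat diet changed miR-122 in the control lineage. Across HFoleic and reference livers, miR-122-5p differed by a log2 fold change of -0.00 (SE 0.12, 95% interval -0.25 to 0.24), which limits a change to between 0.843-fold and 1.18-fold. Its adjusted p was 0.9996 by the quasi-likelihood test of edgeR, adjusted over the 386 miRNAs tested by the Benjamini-Hochberg procedure. miR-122-3p had a log2 fold change of 0.11 (SE 0.13, 95% interval -0.15 to 0.37; adjusted p = 0.609, edgeR), an interval of 0.898-fold to 1.29-fold. Neither arm was called, a call being made where the adjusted p is below 0.05 and the log2 fold change is larger than 0.25 in size. In this comparison 12.4% of the 386 miRNAs were called, 4.92% higher in HFoleic and 7.51% lower.

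The second comparison sets HFepa against the reference, which differ in both diet and lineage. miR-122-5p again had a log2 fold change of -0.00 (SE 0.12, 95% interval -0.25 to 0.25; adjusted p = 0.999, edgeR), and miR-122-3p one of 0.01 (SE 0.13, 95% interval -0.26 to 0.28; adjusted p = 0.978, edgeR). These intervals span 0.839-fold to 1.19-fold for the 5p arm and 0.835-fold to 1.21-fold for the 3p arm. Of all 386 miRNAs 15.8% were called, 5.18% higher in HFepa and 10.6% lower, and neither arm of miR-122 was among them. The reference libraries carry the numbers 1 to 8 and the HFepa libraries 16 to 22, so that whatever may go with the order of the libraries and the groups cannot be told apart here. The same holds for HFoleic against the reference, as the HFoleic libraries, 9 to 15 and 23, all come after the reference libraries. Both comparisons with the reference share its 8 libraries.

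The third comparison, HFepa against HFoleic, sets the lineages side by side on the high-fat diet. miR-122-5p had a log2 fold change of 0.00 (SE 0.12, 95% interval -0.25 to 0.25; adjusted p = 0.991, edgeR), the smallest in absolute size of all 386 miRNAs, within 0.841-fold to 1.19-fold. miR-122-3p had one of -0.10 (SE 0.13, 95% interval -0.37 to 0.17; adjusted p = 0.968, edgeR), within 0.775-fold to 1.13-fold. No miRNA was called between these groups by edgeR (0%, 0 higher and 0 lower) or by DESeq2, whereas 22 of 386 had an unadjusted p under 0.05 in edgeR and 1 was called by limma-voom with quality weights. A p that misses the threshold does not show that the groups are alike, and the intervals give the size of change that was not resolved. Without libraries 3 and 19, the log2 fold changes of miR-122-5p were -0.09, -0.03 and 0.06 in the 3 comparisons and those of miR-122-3p were 0.04, -0.00 and -0.04, and none was called.

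The deposited table lists a second miRNA gene at the same place, and its entries bear on how the counts of miR-122 are read. Mir122 spans bases 65248861 to 65248926 of the plus strand of chromosome 18 (GRCm38). In GENCODE it falls inside an exon (65245359 to 65252621) of the lincRNA gene AC157910.3. It lies between the protein-coding genes Nedd4l, on the plus strand (64887705 to 65217828), and Alpk2, on the minus strand (65265529 to 65394066). Mir122b lies from 65248863 to 65248921, within Mir122. miR-122b is annotated on the opposite strand, so its 3p arm covers the 5p arm of miR-122 and the reverse.

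The count of miR-122b-3p followed that of miR-122-5p closely, at 97.6% to 98.6% of it in every one of the 23 libraries (median 98.3%). miR-122b-5p stood at 96.3% to 97.8% of miR-122-3p in the same libraries (median 97.0%). The miR-122b entries were below the miR-122 entries in all libraries, and together they held 1.41% to 2.31% of the counts. Whether the same reads were counted under both names cannot be told from counts alone. The library totals include both pairs, and without the miR-122b entries the fold changes of miR-122-5p were -0.01, -0.01 and 0.01 on the log2 scale, and those of miR-122-3p 0.10, 0.01 and -0.09, none of them called.

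**Figure D2:**
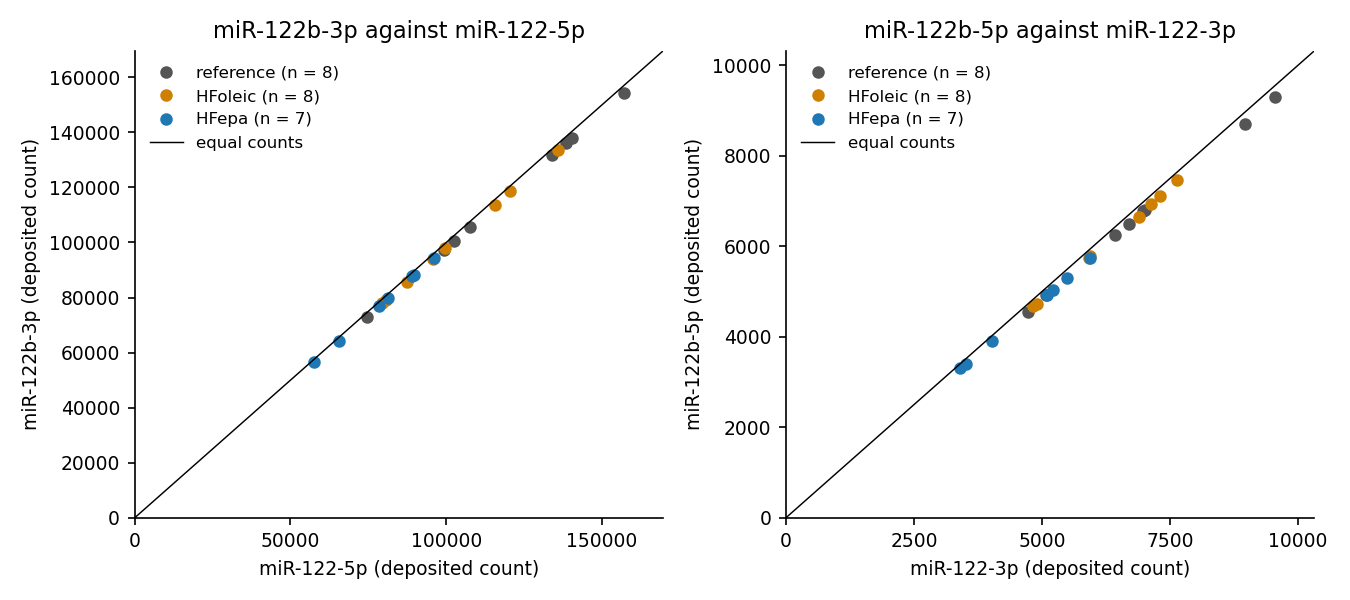
Deposited counts of miR-122b-3p against miR-122-5p (left) and of miR-122b-5p against miR-122-3p (right), 1 point per library coloured by group, with the line of equal counts. All 23 points lie just below the line in both panels.

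Such near-equal counts occurred at other overlapping genes too. RefSeq places 30 pairs of miRNA genes over each other, which gave 12 distinct pairs of opposite arms with at least 100 counts on average, and in 6 of these, both pairs at miR-122 included, the smaller count was at least 95% of the larger in every library. miR-126b-3p and miR-126a-5p even had equal counts in 19 of the 23 libraries. In other pairs the counts were unequal, such as miR-486b-3p at 48.9% to 59.8% of miR-486a-5p.

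Arms of 2 such pairs are shown (RefSeq, GRCm38, 5′ to 3′), 1 with nearly equal counts and 1 without, and capitals mark the bases that pair fully with the opposite arm. These pairs were chosen after their values were seen.
miR-338-3p, chr11:120014781-120014802, minus strand: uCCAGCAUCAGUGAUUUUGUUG
miR-3065-5p, chr11:120014780-120014801, plus strand: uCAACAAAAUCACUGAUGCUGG
miR-126a-3p, chr2:26591402-26591423, plus strand: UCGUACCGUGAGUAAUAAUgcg
miR-126b-5p, chr2:26591399-26591420, minus strand: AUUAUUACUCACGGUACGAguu
Over 21 shared bases, the count of miR-3065-5p was 97.3% to 100% of that of miR-338-3p. Over 19 shared bases, the count of miR-126b-5p was 16.4% to 20.04% of that of miR-126a-3p. The length of the overlap did not set these shares apart, as miR-374c-3p, with 19 bases shared, stood at 98.0% to 100% of miR-374b-5p and miR-203b-5p, with 20, at 41.0% to 51.9% of miR-203-3p.

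In order of level, miR-122-5p was the 11th of all miRNAs by mean CPM and ranked between 9 and 13 in each library. miR-192-5p was first, with 20.4% of counts on average, followed by miR-22-3p (18.1%) and miR-148a-3p (7.87%), whereas miR-122-5p held 1.86%. Just above it were miR-143-3p, a smooth muscle and fibroblast miRNA, with a mean of 25777 CPM and higher than miR-122-5p in 21 of 23 libraries, and miR-27b-3p, with 22579 CPM and higher in 20. Just below it came miR-122b-3p and miR-126b-3p (17398 CPM), the latter lower than miR-122-5p in 15 libraries and higher in 8. miR-122-5p and miR-126b-3p were thus not separated beyond their spread over libraries. These levels are compared as counted, with no correction for how well each miRNA is ligated and amplified.

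miR-122-3p was the 50th by mean CPM and ranked between 45 and 62 in each library. Its neighbours lay within its spread. miR-142a-5p (1219 CPM), a leukocyte miRNA, was higher than miR-122-3p in 15 of 23 libraries, and miR-107-3p (1136 CPM) was higher in 12 and lower in 11. miR-186-5p (1101 CPM) was lower in 15 and higher in 8, and miR-122b-5p (1081 CPM) was lower in all 23. Within groups, the SD of log2 CPM was 0.254 for miR-122-5p and 0.266 for miR-122-3p. Among the 259 miRNAs that averaged 10 CPM or more, 130 varied less than the 5p arm and 141 less than the 3p arm.

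Ratios of counts within a library do not depend on the scaling factor. The ratio of the 5p to the 3p arm, a measure of arm abundance, had its lowest, median and highest values at 15.3, 16.6 and 19.8 in the reference group, 13.3, 16.7 and 17.8 in HFoleic and 13.7, 17.5 and 19.5 in HFepa. On the log2 scale the means were 4.11 ± 0.16, 4.005 ± 0.17 and 4.10 ± 0.16 (SD, n = 8, 8 and 7). The difference was -0.10 for HFoleic against the reference (p = 0.231), -0.00 for HFepa against the reference (p = 0.974) and 0.10 for HFepa against HFoleic (p = 0.249) in 2-sided exact permutation tests. Adjusted over the 12 ratio tests made, these p-values are 0.346, 0.974 and 0.346 (exact permutation tests). HFoleic libraries 14 and 23 and HFepa library 20 had the lowest ratios, apart from the others of their groups. Without library 20, the difference between HFepa and HFoleic was 0.15 with an unadjusted p of 0.0340 (exact permutation test).

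Against miR-192-5p, miR-122-5p was lower in HFoleic than in the reference. The ratio of miR-122-5p to miR-192-5p had its lowest, median and highest values at 0.0911, 0.0982 and 0.110 in the reference group and at 0.0787, 0.0824 and 0.0920 in HFoleic. The groups touch only at HFoleic libraries 13 and 15 and reference libraries 2 and 5. The difference of the log2 means was -0.24 (-3.57 ± 0.08 against -3.33 ± 0.10, SD, n = 8 each; p = 0.000932, 2-sided exact permutation test), with p = 0.0112 after adjustment over 12. It was -0.25 among libraries 1 to 11 alone (p = 0.0121, exact permutation test). These include only libraries 9 to 11 of HFoleic, and the test can give no smaller p there. All reference libraries come before all HFoleic libraries, so library order and group cannot be told apart in either test. The difference was -0.21 without libraries 3 and 19 (p = 0.00186, exact permutation test) and -0.25 to -0.21 with any 1 library left out. The parts of the ratio were not separately called. miR-192-5p had a mean of 220678 ± 15648 CPM in HFoleic and 189214 ± 39112 CPM in the reference (SD, n = 8 each; log2 fold change 0.22, SE 0.11, adjusted p = 0.175, edgeR), while miR-122-5p had one of -0.00. Reference library 3 weighs on both values, with 98104 CPM of miR-192-5p. Without libraries 3 and 19 the log2 fold change of miR-192-5p was 0.13 (adjusted p = 0.0938, edgeR) and that of miR-122-5p was -0.09 (adjusted p = 0.481, edgeR).

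In HFepa the ratio to miR-192-5p was more variable, with its lowest, median and highest values at 0.0728, 0.0872 and 0.117. Its log2 difference from the reference was -0.14 (p = 0.122, adjusted 0.294, exact permutation test) and from HFoleic 0.10 (p = 0.284, adjusted 0.346, exact permutation test). HFepa library 22 had the highest ratio of all 23 libraries and library 19 the lowest. Without library 22 the difference from the reference was -0.20 (p = 0.00799, exact permutation test), and without libraries 3 and 19 it was -0.07 (p = 0.401, exact permutation test). Single libraries therefore decide the value of this comparison.

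Against the other abundant miRNAs no ratio passed the adjusted threshold. The ratio to miR-148a-3p had medians of 0.221 in the reference, 0.224 in HFoleic and 0.257 in HFepa. Its log2 difference was 0.16 for HFoleic against the reference (p = 0.260, adjusted 0.346), 0.28 for HFepa against the reference (p = 0.00995, adjusted 0.0597) and 0.12 for HFepa against HFoleic (p = 0.288, adjusted 0.346) in exact permutation tests. Within libraries 1 to 11 the first of these was -0.07, and within libraries 12 to 23 the third was -0.01. Without libraries 3 and 19 the differences were, in the same order, 0.08, 0.21 and 0.13. Their unadjusted p-values were then 0.508, 0.0268 and 0.313 (exact permutation tests). In HFepa against the reference, miR-148a-3p itself had a log2 fold change of -0.26 and was not called (SE 0.10, adjusted p = 0.0679, edgeR).

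The ratio to miR-22-3p had medians of 0.113, 0.100 and 0.0964 in the reference, HFoleic and HFepa. The log2 differences were -0.14 (p = 0.106) for HFoleic and -0.16 (p = 0.106) for HFepa against the reference, both with an adjusted p of 0.294, and -0.02 between HFepa and HFoleic (p = 0.828, adjusted 0.903), by exact permutation tests. Reference library 3 decided both of the first values. Without it they were -0.20 (p = 0.00342) and -0.22 (p = 0.0105), unadjusted, by exact permutation tests. miR-22-3p itself had log2 fold changes of 0.16 in HFoleic and 0.17 in HFepa against the reference. Neither was called (SE 0.07 each, adjusted p = 0.128 and 0.0923, edgeR).

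**Figure D3:**
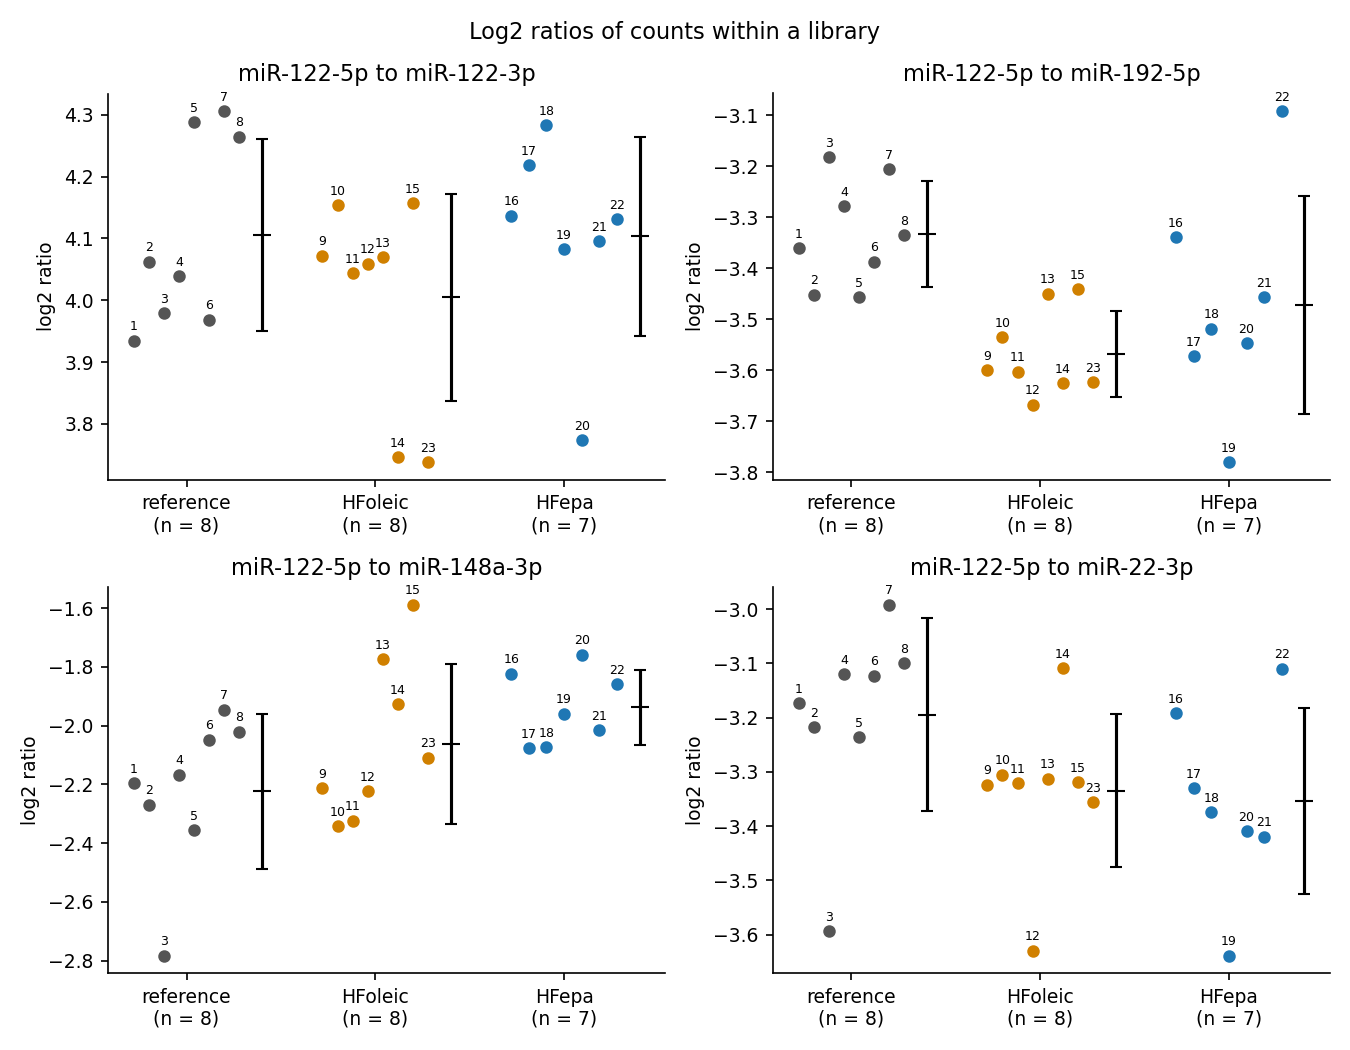
Log2 ratio of the count of miR-122-5p to that of miR-122-3p, miR-192-5p, miR-148a-3p and miR-22-3p in each numbered library of the 3 groups (n = 8, 8 and 7), with group means and SDs as bars; the axes do not start at 0. The ratio to miR-192-5p is lower in HFoleic than in the reference, with means of -3.57 and -3.33.

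Over the 23 libraries the 2 arms of miR-122 went up and down together. Their log2 CPM levels had a Pearson r of 0.794 (p = 1e-05, the smallest that 100000 permutations can give, adjusted 3e-05 over 3 relations) and a Spearman rho of 0.529 (permutation p = 0.0108, adjusted 0.0325). Without libraries 3 and 19, the 2 farthest from the median level of miR-122-3p, r was 0.548. Within the reference, HFoleic and HFepa groups r was 0.888, 0.628 and 0.790, and it was 0.885 in libraries 1 to 11 and 0.710 in libraries 12 to 23. The reference group and libraries 1 to 11 include library 3, the lowest of all for both arms (10804 and 685 CPM). Their r was not computed without it. The levels share the scaling factor of each library, and with the plain library size in place of TMM r was 0.623.

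miR-122-5p and miR-192-5p, both made in hepatocytes, had a Pearson r of 0.769 between their log2 CPM levels (permutation p = 0.00081, adjusted 0.00121) and a Spearman rho of 0.445 (permutation p = 0.0349, adjusted 0.0524). The size of r over all libraries depended on a few of them. Without libraries 3 and 4, the 2 farthest from the median level of miR-192-5p, r was 0.498, and without libraries 3 and 19 it was 0.363 (permutation p = 0.105). Within groups r was 0.966 in the reference, 0.896 in HFoleic and 0.342 in HFepa. The reference value includes library 3 and was not computed without it. Over all libraries r was 0.837 after the group means were subtracted. The relation of miR-122-5p to the library total did not pass the threshold (r = 0.196, permutation p = 0.374; rho = 0.197).

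**Figure D4:**
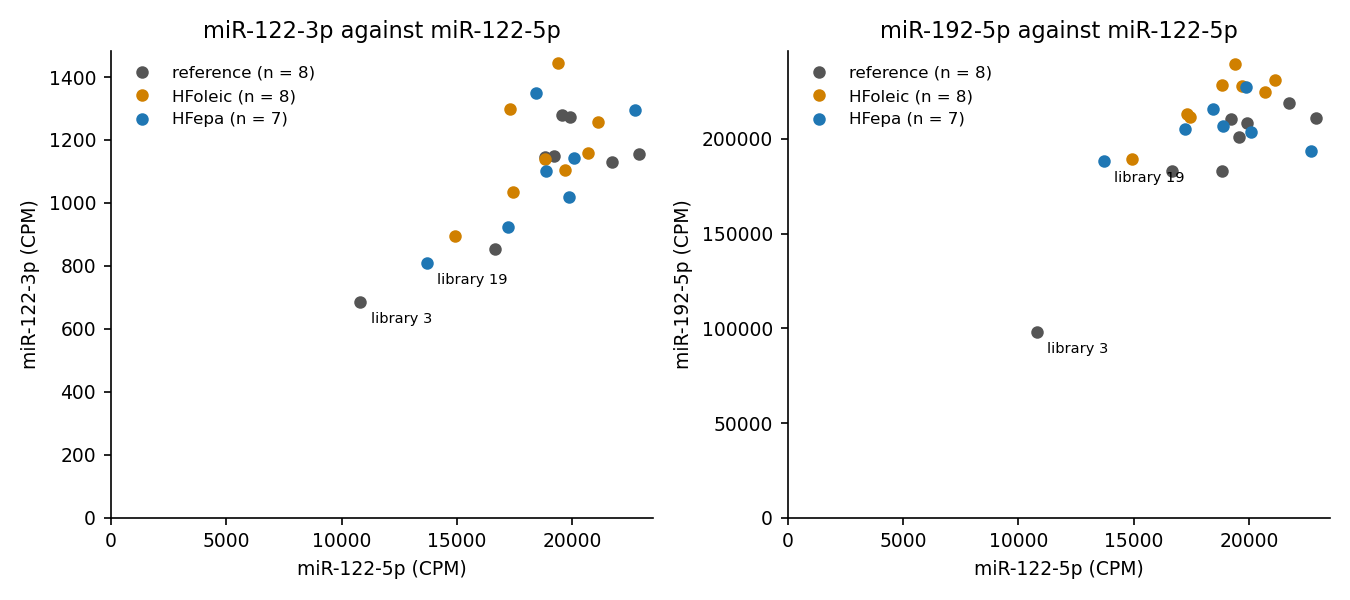
TMM-scaled CPM of miR-122-3p (left) and of miR-192-5p (right) against that of miR-122-5p, 1 point per library coloured by group (reference n = 8, HFoleic n = 8, HFepa n = 7). Libraries 3 and 19 lie at the low end of miR-122-5p, and library 3 is the lowest on both axes of both panels.

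The miRNAs whose levels followed miR-122-5p most closely were ranked by Spearman's rho over the 23 libraries among the 258 other miRNAs that averaged 10 CPM or more, as a description with no test. The first was miR-122b-3p (rho = 0.999), the entry at the same locus. It was followed by miR-26b-3p (0.715), miR-30c-5p (0.679), miR-130a-3p (0.664) and miR-455-5p (0.654), and miR-122-3p came at rank 15. At the other end were let-7i-5p (-0.640), miR-181d-5p (-0.694) and miR-98-5p, a member of the let-7 family (-0.717). After the group means were subtracted, the first 5 were miR-122b-3p (1), miR-22-3p (0.755), miR-26b-3p (0.695), miR-130a-3p (0.691) and miR-30e-5p (0.685). All these levels share the libraries' scaling factors.

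Other miRNAs of the hepatocyte were read from a list of 8, which includes both arms of miR-122, and all 8 were tested. In HFoleic against the reference 1 of 8 was called, miR-101b-3p, which was 3723 ± 226 CPM in HFoleic and 2935 ± 637 CPM in the reference (SD, n = 8 each; log2 fold change 0.34, SE 0.11, adjusted p = 0.0464, edgeR). Its lowest, median and highest levels were 1543, 3162 and 3407 CPM in the reference and 3341, 3726 and 4087 CPM in HFoleic, so the groups overlap slightly, and library 3 held the lowest value. The call was kept without libraries 3 and 19 (log2 fold change 0.25, adjusted p = 0.0205, edgeR) but in only 14 of 37 alternative fits, and it was lost, among others, without reference library 5 (log2 fold change 0.29, adjusted p = 0.139, edgeR). This count of 1 in 8 is near the 12.4% called over all miRNAs. In HFepa against the reference 0 of 8 were called by edgeR, where 15.8% of all miRNAs were, and in HFepa against HFoleic 0 of 8. The median log2 fold change of the list was 0.10, 0.03 and -0.11 in the 3 comparisons, where that of all 386 miRNAs was -0.00, -0.06 and -0.02. miR-802-5p, a miRNA that rises in obese mouse liver in other work, had the widest interval of the list in HFoleic against the reference (log2 fold change 0.49, SE 0.22, adjusted p = 0.151, edgeR).

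**Figure D5:**
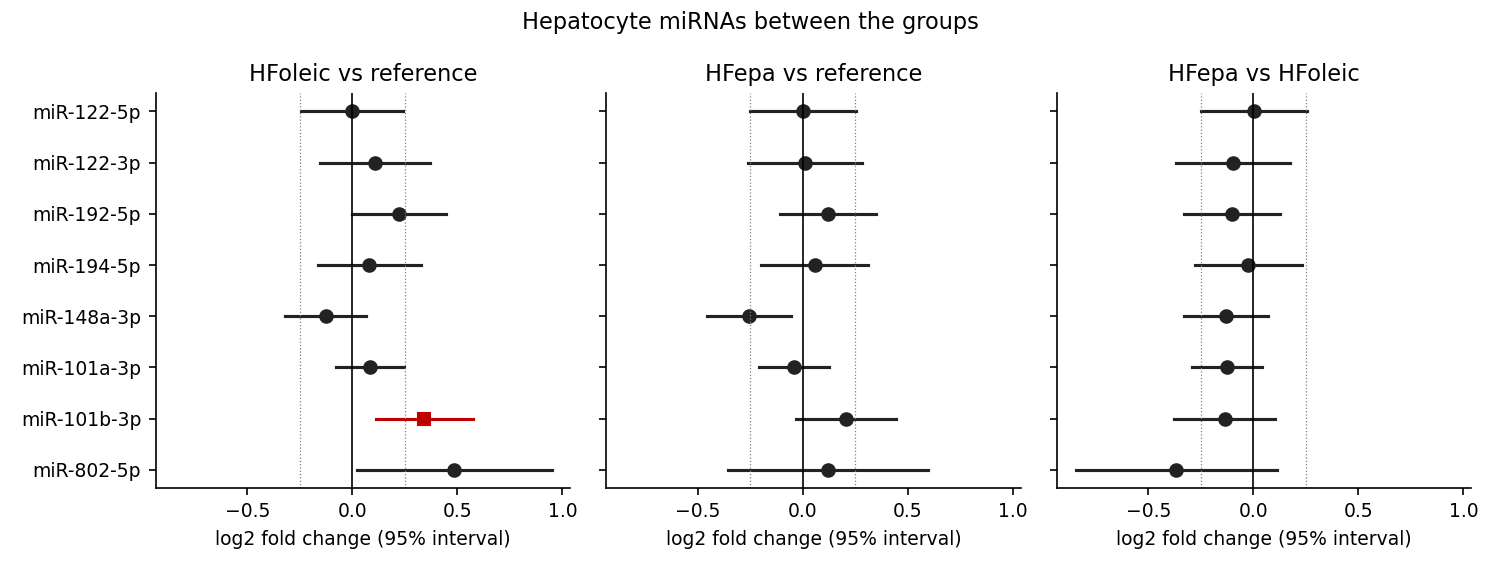
Log2 fold change with its 95% interval from edgeR of the 8 hepatocyte miRNAs in HFoleic against reference, HFepa against reference and HFepa against HFoleic (n = 8, 8 and 7 libraries), with dotted lines at 0.25 and -0.25 and a red square where the miRNA was called. Both arms of miR-122 sit at or near 0 in every panel, and miR-101b-3p in HFoleic against the reference is the 1 miRNA called.

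miR-122 acts on lipid metabolism together with other miRNAs, of which a list of 21 was used and 20 were tested. In HFoleic against the reference 3 of 20 were called, 2 higher and 1 lower. miR-33-5p, which lies in the gene of the sterol regulator Srebf2 and targets cholesterol export, rose from 7.43 ± 2.04 to 11.1 ± 1.61 CPM (SD, n = 8 each; log2 fold change 0.58, adjusted p = 0.0278, edgeR). miR-107-3p, linked to insulin signalling, rose from 980 ± 205 to 1283 ± 127 CPM (log2 fold change 0.39, adjusted p = 0.0357, edgeR). miR-128-3p, which targets the cholesterol transporter ABCA1 and the low-density lipoprotein receptor, fell from 45.1 ± 3.87 to 32.2 ± 8.39 CPM (log2 fold change -0.49, adjusted p = 0.0311, edgeR). All 3 calls were kept without libraries 3 and 19, and they held in 28, 22 and 23 of 37 alternative fits. Without reference library 5 all 3 were lost, with adjusted p-values of 0.0631, 0.0912 and 0.0580 (edgeR) and log2 fold changes of 0.46, 0.35 and -0.51. Leaving out HFoleic library 14 also lost all 3 (adjusted p = 0.0522, 0.0633 and 0.0606, edgeR), with log2 fold changes of 0.60, 0.39 and -0.42. Among libraries 1 to 11 alone the log2 fold changes were 0.55, 0.33 and -0.11, with none called. Only libraries 9 to 11 of HFoleic are among these, which limits what a lost call there can show. The 12.4% called over all miRNAs is the background for the count of 3 in 20.

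In HFepa against the reference 1 of 20 lipid miRNAs was called, beside 15.8% of all miRNAs. miR-128-3p fell to 29.1 ± 6.60 CPM (SD, n = 7; log2 fold change -0.63, adjusted p = 0.00872, edgeR), a call kept in 34 of 36 alternative fits. It was lost with quantile normalization (log2 fold change -0.47, adjusted p = 0.109, limma). It was also lost in the fit with a term for the library number, where the log2 fold change was 0.0081 and no miRNA was called. That term only splits libraries 1 to 11 from 12 to 23, with all reference libraries before the split and all HFepa libraries after it. This fit compares these groups only through the HFoleic libraries on both sides, so it cannot decide whether the call holds. Between HFepa and HFoleic 0 of 20 were called. The list's median log2 fold change was 0.11, 0.01 and -0.10 in the 3 comparisons. miR-27b-3p, the abundant neighbour of miR-122-5p and a regulator of lipid genes, had adjusted p-values of 0.0288 and 0.0414 (edgeR) in HFoleic and HFepa against the reference, but its log2 fold changes of 0.18 and 0.17 lie under the size that a call needs.

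Markers of other cell types were at lower summed levels than the hepatocyte list in all libraries. The 6 stellate cell and fibroblast miRNAs summed to between 19872 and 42532 CPM and the 2 endothelial miRNAs to between 13887 and 26007 CPM. The 4 red blood cell miRNAs summed to between 3571 and 8773 CPM, the 6 leukocyte miRNAs to between 1533 and 3557 CPM and the 5 biliary epithelium miRNAs to between 151 and 1094 CPM. Of these 23 miRNAs, 1 was called in HFoleic against the reference (12.4% of all miRNAs were), the leukocyte miR-150-5p, which was lower. In HFepa against the reference 3 of 23 were called (15.8% of all were), miR-150-5p and the biliary miR-429-3p lower and the endothelial miR-126a-5p higher. The calls of miR-150-5p were kept without library 3 and without libraries 3 and 19. The log2 fold change of miR-429-3p was -1.22 with reference library 3 (adjusted p = 0.0340, edgeR). Without library 3 it was -0.48 and not called (adjusted p = 0.0750, edgeR). Without libraries 3 and 19 it was -0.58 and called (adjusted p = 0.0383, edgeR). miR-126a-5p had a log2 fold change of 0.25 with library 3 and of 0.20 without it, which is too small for a call, and it was also not called without library 5 (0.23, adjusted p = 0.109, edgeR).

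The muscle miR-133a-3p and the pancreatic miR-375-3p, the 1 tested miRNA of each of those lists, were called lower in both comparisons with the reference. Without library 4, miR-133a-3p had log2 fold changes of -0.15 and -0.36 in HFoleic and HFepa against the reference, in place of -2.64 and -2.85. The first of these calls was also lost without library 5, at a log2 fold change of -2.74 (adjusted p = 0.0631, edgeR). Without library 5, miR-375-3p had -0.32 and -0.62, in place of -3.87 and -4.19, and neither miR-133a-3p without library 4 nor miR-375-3p without library 5 was called. Muscle miRNAs summed to 217 CPM in reference library 4 and pancreatic miRNAs to 2021 CPM in reference library 5, and these sums were at most 12.2 and 57.4 CPM in the other 22 libraries. Neither library 4 nor 5 was the highest or lowest of its group for either arm of miR-122. Library 5 was the next lowest reference library after library 3 for both arms (16657 and 853 CPM). Without library 5, miR-122-3p had log2 fold changes of 0.041 and -0.039 in HFoleic and HFepa against the reference, in place of 0.11 and 0.01. Those of miR-122-5p were then -0.051 and -0.031, and neither arm was called.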

How the data were processed

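Small RNA libraries of 23 mouse livers (TruSeq Small RNA kit) were grouped by the lineage and diet in their labels. The authors removed adapters with the FASTX-Toolkit, mapped the reads with Bowtie in ncPRO-seq and deposited counts per mature miRNA of miRBase. The genome is named as GRCm38.p6 and mm9 in the methods and mm10 in the labels, and the table carries no coordinates. The authors also deposited a signal, each count over its library's size factor, and group means, fold changes and p-values, which were not used. The submitters' processing notes name bcl2fastq 2.17.1.14.

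From the counts, miRNAs were kept by filterByExpr (386 of 1218), scaled by TMM, and tested by edgeR 4.0.16 (R 4.3.3) quasi-likelihood tests in 1 fit of the 3 groups, with Benjamini-Hochberg adjustment. miRNAs were called where the adjusted p was below 0.05 and the log2 fold change exceeded 0.25 in size. Ratios were log2((count + 0.5)/(count + 0.5)) and were compared by exact permutation tests, and correlations by 100000 permutations (scipy 1.17.1). Alternatives used DESeq2 1.42.0, limma 3.58.1, other scalings and filters, fewer libraries and a term for the library number. This term only split libraries 1 to 11 from 12 to 23, with all reference libraries before the split and all HFepa libraries after it. Libraries 1 to 11 include only libraries 9 to 11 of HFoleic. A count without molecular identifiers is not a molecule, so counting errors cover counting only. The scripts were tested on simulated data. Of the 1218 miRNAs, 1045 had a mature sequence in the RefSeq table. The mature sequences of miR-122 are not printed here.

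The members and the lists of miRNAs were chosen with earlier results of these data known. The miRNAs named are both members, the 3 with the highest mean CPM, the 2 next above and the 2 next below each member, the 5 highest and 3 lowest in rho to miR-122-5p, the 5 highest after subtraction of group means, and every called miRNA of the hepatocyte and lipid lists. Others named, such as miR-802-5p, miR-27b-3p among the lipid miRNAs, the marker miRNAs called and the pairs at other overlapping genes, were chosen after their values were seen.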

Additional observations from a re-analysis of the deposited data

Results flagged for a closer look

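Of 18 groups of values checked, 2 held a library far from the others, and chance flags about 1 group in 20. The log2 ratio of miR-122-5p to miR-22-3p was -3.59 in reference library 3, against -3.24 to -2.99 in the other reference libraries, a gap of 0.594 of the group's range where the critical value is 0.526. The log2 ratio of miR-122-5p to miR-122-3p was 3.77 in HFepa library 20, against 4.08 to 4.28 in the other HFepa libraries, a gap of 0.606 of the range where the critical value is 0.568.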

How the results depend on the processing

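Neither arm of miR-122 was called in any of 232 alternatives over the 3 comparisons, some of which were the main fit read at other thresholds. Their log2 fold changes ran from -0.15 to 0.16, and the lowest adjusted p was 0.400 (limma-voom with quality weights). As the reported values lie near 0, the sign changed in 48 of these alternatives, and the cause was not tested. For miR-122-5p in HFoleic against the reference it was 0.022 with upper-quartile factors. In HFepa against the reference it was 0.0074 with DESeq2, 0.013 with TMM factors computed without the 3 most abundant miRNAs, 0.025 with only the 2 groups compared and 0.019 with libraries thinned to the lowest total. In HFepa against HFoleic it was -0.029 with quantile normalization, -0.027 with upper-quartile factors and -0.014 with at least 10 counts in every library. For miR-122-3p it was -0.049 in HFoleic against the reference with limma-voom and quality weights. In HFepa against the reference it was -0.11 with quantile normalization, -0.11 with limma-voom, -0.041 with library size in place of TMM, -0.0014 without a filter, -0.010 with at least 10 counts in every library, -0.14 with a term for the library number and -0.0018 without libraries 3 and 19.

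With 1 library left out at a time, miR-122-5p ran from -0.086 to 0.067, -0.086 to 0.067 and -0.041 to 0.075 in HFoleic against reference, HFepa against reference and HFepa against HFoleic, and miR-122-3p in HFepa against reference from -0.060 to 0.074. The log2 ratio to miR-122-3p ran from -0.032 to 0.053 in HFepa against reference and from 0.060 to 0.15 in HFepa against HFoleic, and that to miR-192-5p in HFepa against reference from -0.20 to -0.089. The ratio to miR-22-3p ran from -0.20 to -0.10, -0.22 to -0.11 and -0.061 to 0.029 in the 3 comparisons. Without libraries 3 and 19, a choice made after seeing the data like the removal of the miR-122b entries, the latter were -0.20, -0.17 and 0.029, with exact permutation p = 0.00342, 0.0210 and 0.705. The ratio to miR-148a-3p was -0.070 in HFoleic against reference within libraries 1 to 11 and -0.014 in HFepa against HFoleic within libraries 12 to 23. The correlation of miR-122-5p with miR-192-5p was 0.363 without libraries 3 and 19.

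The background counts moved more. Of 48 miRNAs called in HFoleic against reference, the number was 25 with DESeq2, 31 with limma-voom, 29 without a filter, 10 with quantile normalization, 7 with only the 2 groups compared, 1 with a term for the library number, 0 within libraries 1 to 11, and 12 without reference library 5. Without HFoleic library 13, 14 or 15 it was 24, 21 and 20. Of 61 in HFepa against reference it was 24 with quantile normalization, 40 with only the 2 groups compared, 0 with the library number term, 36 without reference library 5, and 38, 38 and 32 without HFepa library 16, 18 or 22. Between HFepa and HFoleic it was 1 with limma-voom and without library 19, and 5 at an unadjusted p under 0.01. No paired analysis was possible because the labels tie no mouse of one group to a mouse of another, and the replicate numbers were given in order within each group.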
